A study of Mus musculus with 17 samples.

Results

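Glycolysis, the pentose phosphate pathway and their entry and exit steps were followed through the RNA of 34 named mouse genes, out of 24453 gene models that carried a value. The genes were taken by symbol from a list of names that was drawn up with earlier results of these data known. They comprise 3 glucose transporters, 3 hexokinases, 7 enzymes of upper glycolysis, 2 enzymes that set the level of fructose 2,6-bisphosphate, 5 enzymes of lower glycolysis, 4 genes of lactate formation and transport, 3 genes around pyruvate dehydrogenase, 2 hypoxia genes (Hif1a and Bnip3) and 5 enzymes of the pentose phosphate pathway. Glycolysis converts glucose to pyruvate and yields ATP without oxygen, and the pentose phosphate pathway branches from glucose 6-phosphate to supply NADPH and ribose. Many glycolytic genes, the glucose transporter Slc2a1 and the lactate exporter Slc16a3 among them, are known targets of the hypoxia-inducible factors, and macrophages activated through Toll-like receptors are known for raised glycolysis. AP-1 is a family of dimeric transcription factors, and ATF3, Jun and JunD are the members whose genes were targeted in these cells.

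Polyadenylated RNA was sequenced from 8 libraries of immortalised bone marrow-derived macrophages (iBMDMs) and from 5 libraries of thioglycollate-elicited macrophages (TGEMs). The iBMDMs were male C57Bl/6EiJ cells immortalised with BRAF(V600E) and Myc, used at passage 3 to 8 with vehicle (PBS) only, and comprised Scramble control, Atf3KO, JunKO and JunDKO cells with 2 libraries each. The titles of the 2 Scramble libraries read zsGreen and name no vehicle, whereas the titles of the knockout libraries read Veh. The knockouts were made by lentiviral CRISPR with 2 guides per virus, and infected cells were sorted on a fluorescent marker carried by the virus. The methods name no step of cloning from single cells. The TGEMs came from male mice of 8 weeks, were flushed from the peritoneum 3 days after thioglycollate, and were cultured before vehicle or KLA (Kdo2 lipid A, an agonist of the lipopolysaccharide receptor TLR4) was added for 1 h at 100 ng/mL. For C57Bl/6EiJ there was 1 vehicle and 1 KLA library, and for Balb/cJ there was 1 vehicle and 2 KLA libraries. The strain name C57Bl/6EiJ is that of the labels, whereas the methods give C57Bl/6J for the mice from which TGEMs were taken, and this difference could not be settled here. The study calls the libraries of an iBMDM group replicate experiments, but neither its methods nor the labels say whether these were separate cultures or separately edited populations, so the p-values measure only the spread between these libraries, which may be technical.

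Levels are RPKM, the reads in the exons of a gene scaled for exon length and for library size, and the libraries were scaled to 1553296 to 18444405 reads, of which 1272105 to 14952442 fell in exons. A gene was tested where its mean reached 1 RPKM over the libraries of a fit, and it passed where limma-trend on log2(RPKM + 1) gave an adjusted p under 0.05 over all tested genes. Changes are given on that log2 scale with their standard error, while folds are ratios of group mean RPKM. Of the 34 members, 33 could be tested in iBMDMs and 32 in TGEMs. Both cell kinds were rich in the 8 macrophage markers found in the table, whose summed level was 16880 to 33015 RPKM in iBMDMs and 7803 to 10847 RPKM in TGEMs. In iBMDMs the marker sums of neutrophils, B cells, T cells, eosinophils, mast cells, fibroblasts, erythroid cells and dendritic cells each lay at or below 11.2 RPKM, whereas the TGEM libraries held 28.3 to 55.1 RPKM of fibroblast and mesothelium markers, 10.1 to 23.9 RPKM of B cell markers, 3.30 to 20.3 RPKM of neutrophil markers and 1.78 to 18.7 RPKM of mast cell markers. The neutrophil sum was mostly Mmp8, at 2.99 to 20.1 RPKM in TGEMs and up to 11.1 RPKM in iBMDMs. The other 6 neutrophil markers stayed under 1 RPKM in every library. In such bulk RNA, fewer cells of a type and less RNA per cell cannot be told apart. The RNA of the targeted genes is no check of the labels, because small CRISPR deletions need not lower it. The study checked the knockouts by western blot and reports a substantial loss of Jun ChIP-seq peaks in Jun knockout iBMDMs. Atf3 RNA stood at 80.7 and 77.4 RPKM in Scramble and at 154 and 169 RPKM in the libraries labelled Atf3KO, where it was higher. Jun RNA stood at 17.6 and 18.5 RPKM in Scramble and at 26.2 and 20.5 RPKM in those labelled JunKO, while Jund RNA lay at 9.19 and 8.33 RPKM in Scramble and 6.94 and 6.07 RPKM in JunDKO. In Atf3KO, Jund RNA was higher, at 22.6 and 83.0 RPKM (2.19 ± 0.49, limma-trend adjusted p = 0.0100), a change of 1.10 ± 0.28 with a correction for GC content (adjusted p = 0.0163), and the call was lost without Scramble replicate 2 (adjusted p = 0.0684). The second Atf3KO library carries a later date in its label than the other 7 iBMDM libraries.

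In JunDKO cells RNA was lower for genes at each stage from glucose uptake to lactate export. Against Scramble, 18 of the 33 tested members fell and 0 rose, whereas 4.82% of all 10691 tested genes fell and 6.93% rose. Of these 18, 14 also changed at least 2-fold with a group mean of at least 16 RPKM, a rule met by 4.97% of all tested genes. The median member change was -0.86 against 0.23 over all tested genes, and it was -1.14 against -0.04 after the library medians were set equal. Those that fell were the transporters Slc2a1 and Slc2a6, the hexokinases Hk1 and Hk3, Gpi1, Pfkl, Pfkp, Aldoa and Tpi1 of upper glycolysis, Pgk1, Pgam1, Eno1 and Pkm of lower glycolysis, Ldha and the lactate transporter Slc16a3, the hypoxia gene Bnip3, and Pgd and Taldo1 of the pentose phosphate pathway. Against the same Scramble libraries, 3 members rose and 6 fell in Atf3KO cells, where 20.7% of tested genes rose and 20.6% fell, and a correction for GC content changed the member counts to 4 higher and 14 lower (12.1% and 42.4% of members), with 21.8% of genes higher and 19.2% lower. The uncorrected count of 9 depended on single libraries, as did that of all genes. The median member change was -0.17, and it was 0.02 without Scramble replicate 1 and -0.24 without Scramble replicate 2. It was -0.09 without Atf3KO replicate 1 and -0.29 without Atf3KO replicate 2, against 0.02 to 0.07 over all genes in these fits. Slc2a1 alone passed in all 4 of these. In JunKO cells 0 members rose and 0 fell by limma-trend, with 0.159% and 0.122% of tested genes doing so. For JunKO, 4 members had an unadjusted p under 0.05, the smallest adjusted p of any member was 0.461, and limma-voom on reads also passed 0. Scramble, JunKO and JunDKO libraries share a date and their same-numbered libraries deviated together, so a fit of these 6 with the replicate number as a block was added after the data were seen, with 2 residual degrees of freedom. The labels state no pairing, so this block is an assumption. In that paired fit Pgd (-0.59 ± 0.07, limma-trend adjusted p = 0.0270) and Taldo1 (-0.66 ± 0.08, adjusted p = 0.0242) fell in JunKO, where 0.655% of genes fell and 0.664% rose. For JunDKO against Scramble the paired fit passed 21 members, the same 18 with Hk2 and Aldoc lower and Pgls higher (0.48 ± 0.12, limma-trend adjusted p = 0.0335), where 8.07% of genes fell and 16.8% rose. The JunDKO count rested on both libraries of each group. When any Scramble or JunDKO library was left out, fewer members passed by limma-trend and fewer of all genes did too. The median member change was -0.68 without Scramble replicate 1 and -1.03 without Scramble replicate 2. It was -0.98 without JunDKO replicate 1 and -0.82 without JunDKO replicate 2, against 0.22 to 0.24 over all genes in these fits. Slc2a1, Pgam1, Pkm, Slc16a3 and Pgd passed under each of these, the other 13 lost the call in at least 1 of them, and none of the 18 changed sign in any fit run. The fit on the same 6 libraries with no block, also added later, again passed 18 members.

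**Figure D1:**
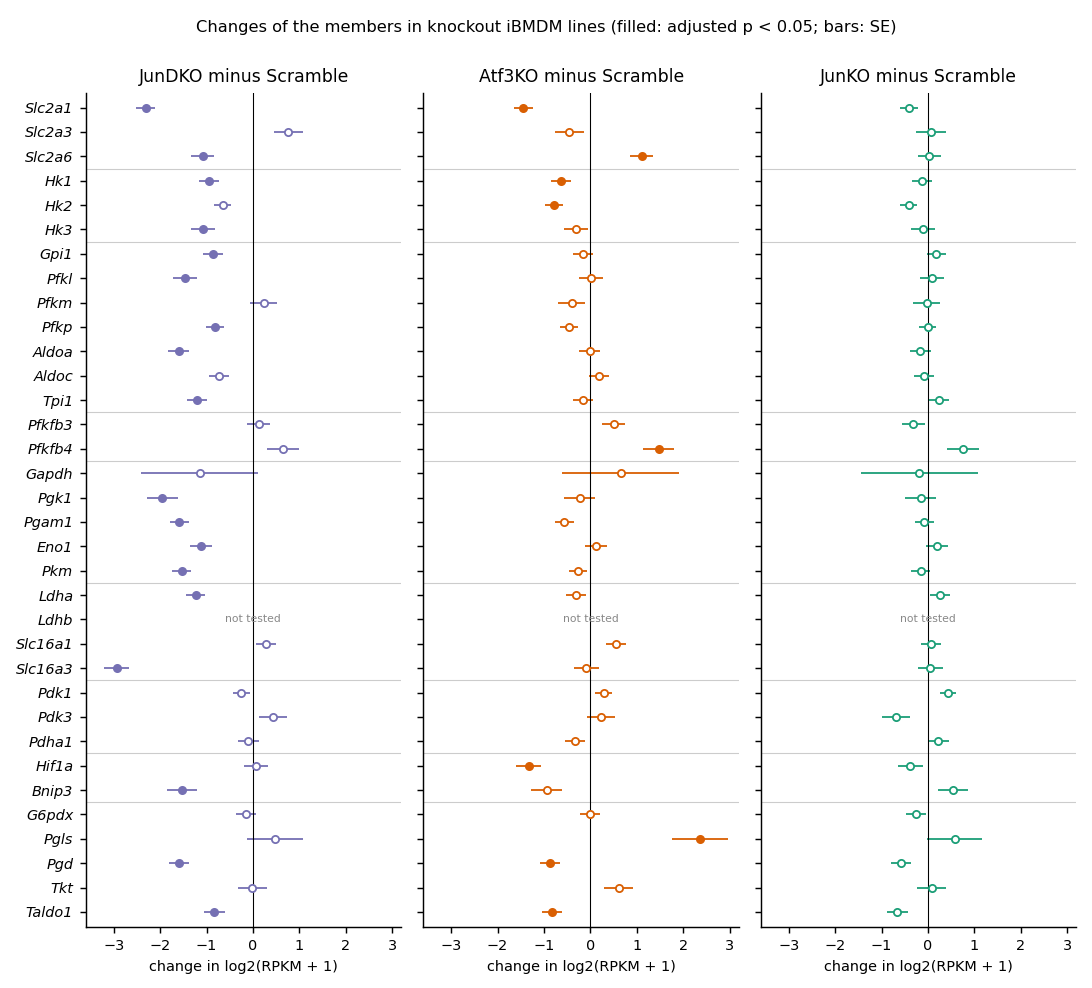
Change of each member in log2(RPKM + 1) against Scramble in JunDKO, Atf3KO and JunKO iBMDMs, with 1 row per gene grouped by role, points at the fitted change, bars for its standard error and filled points for an adjusted p under 0.05. In the JunDKO panel 18 points are filled and all lie left of zero, down to -2.93 for Slc16a3, in the Atf3KO panel 9 are filled on both sides, and in the JunKO panel 0 are filled.

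Proliferation genes and some macrophage markers also differed in level between these libraries. The sum of 8 proliferation genes (Mki67, Top2a, Ccnb1, Cdk1, Mcm5, Pcna, Aurka and Bub1) was 296.1 and 288.3 RPKM in Scramble, 346.5 and 276.3 RPKM in Atf3KO, 375.9 and 409.6 RPKM in JunKO, and 457.4 and 442.5 RPKM in JunDKO. The macrophage marker sum was 23851 and 22314 RPKM in Scramble against 17442 and 16880 RPKM in JunDKO, which lay in a single abundant gene, Lyz2 (lysozyme), from 21520 and 20190 to 15109 and 14815 RPKM. Without Lyz2 the sum was 2331 and 2124 RPKM in Scramble and 2333 and 2065 RPKM in JunDKO, where Csf1r, Cd68, Mertk and Fcgr1 lay above Scramble and Adgre1 and Itgam below it. The part of either in the lower glycolytic RNA of JunDKO cells was not tested.

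The promoters of the 4 members with the largest changes that passed against Scramble in any knockout are shown, searched for the elements of the hypoxia-inducible factors and AP-1. They run from 250 bases before the start site to 50 bases after it, 5′ to 3′ on the strand of the gene, and come from RefSeq on GRCm38.p6. Capitals mark matches on either strand to the hypoxia response element, whose core was searched as ACGTG and, separately, as GCGTG. The E-box, CACGTG, which overlaps the former core, was searched too. So were the AP-1 element, spelled TGANTCA, and the cyclic AMP response element, spelled TGACGTCA, neither of which is in these 4 windows. All 4 genes are on the plus strand, and the windows are chr11:120948817-120949116 for Slc16a3, chr4:119108495-119108794 for Slc2a1, chrX:106186850-106187149 for Pgk1 and chr8:71591934-71592233 for Pgls.
Slc16a3: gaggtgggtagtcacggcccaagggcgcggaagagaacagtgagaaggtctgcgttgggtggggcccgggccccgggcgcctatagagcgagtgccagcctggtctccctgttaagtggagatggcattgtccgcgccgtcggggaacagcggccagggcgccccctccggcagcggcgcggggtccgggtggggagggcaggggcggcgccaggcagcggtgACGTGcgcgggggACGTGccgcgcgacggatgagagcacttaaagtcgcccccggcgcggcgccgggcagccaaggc
Slc2a1: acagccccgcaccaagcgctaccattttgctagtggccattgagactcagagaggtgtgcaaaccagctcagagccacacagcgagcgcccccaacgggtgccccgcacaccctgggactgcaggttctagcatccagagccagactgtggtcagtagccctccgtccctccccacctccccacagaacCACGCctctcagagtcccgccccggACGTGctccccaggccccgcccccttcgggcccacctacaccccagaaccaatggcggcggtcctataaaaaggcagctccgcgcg
Pgk1: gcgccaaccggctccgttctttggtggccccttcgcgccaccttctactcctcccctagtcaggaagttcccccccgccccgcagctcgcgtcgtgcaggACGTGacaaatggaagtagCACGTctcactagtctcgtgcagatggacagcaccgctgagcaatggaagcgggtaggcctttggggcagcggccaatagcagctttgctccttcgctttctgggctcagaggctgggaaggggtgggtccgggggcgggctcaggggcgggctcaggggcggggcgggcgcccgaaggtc
Pgls: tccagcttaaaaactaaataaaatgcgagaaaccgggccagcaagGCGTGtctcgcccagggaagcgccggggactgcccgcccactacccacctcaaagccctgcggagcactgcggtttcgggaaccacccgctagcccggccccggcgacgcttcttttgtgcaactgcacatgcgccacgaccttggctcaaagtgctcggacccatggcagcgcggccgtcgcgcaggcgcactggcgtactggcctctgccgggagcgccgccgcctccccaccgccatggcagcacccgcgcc
ACGTG was found at -27 and -14 from the start of Slc16a3, at -36 from that of Slc2a1, and at -150 and, on the other strand, -131 from that of Pgk1, each position being the leftmost base of the match. GCGTG was found at -205 in Pgls and, on the other strand, at -61 in Slc2a1. Of the 33 members with a promoter in RefSeq (Slc2a3 was not matched), 17 held ACGTG (51.5%) against 19.6% of all 32851 promoters and 26.4% of 10261 promoters of genes tested in iBMDMs. GCGTG was held by 21 member promoters (63.6%), against 32.4% of all promoters and 51.6% of those of tested genes, and CACGTG by 5 (15.2%) against 7.15% and 10.4%. TGANTCA was in 1 member promoter (3.03%) against 7.81% of all promoters and 4.93% of those of tested genes, and TGACGTCA was in 1 (3.03%) against 1.79% and 3.23%. A match describes the letters in this window and not a bound site.

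Of the glucose transporters, Slc2a1 (GLUT1, the widely expressed carrier for basal uptake) fell in JunDKO and in Atf3KO cells. It stood at 85.8 and 72.3 RPKM in the Scramble libraries, 60.0 and 58.6 in JunKO, 24.5 and 32.5 in Atf3KO and 13.8 and 16.4 in JunDKO, so the 4 groups followed each other with no overlap. The JunDKO level was 5.23-fold lower than Scramble (-2.31 ± 0.20, limma-trend adjusted p = 0.000353) and the Atf3KO level 2.77-fold lower (-1.45 ± 0.20, adjusted p = 0.00173). The change in JunKO was -0.40 ± 0.20, with a limma-trend adjusted p of 0.717. Slc2a1 fell further in JunDKO than in Atf3KO cells, with a difference of 0.86 ± 0.20 for Atf3KO minus JunDKO (limma-trend adjusted p = 0.0112), which did not pass without JunDKO replicate 1 (adjusted p = 0.0789) and passed in the other 14 of 15 alternatives. Slc2a6 (GLUT6, a carrier found mainly in intracellular membranes) moved in opposite directions in these cells. Its levels were 54.2 and 44.3 RPKM in Scramble, 59.4 and 42.0 in JunKO, 90.8 and 125 in Atf3KO and 24.9 and 20.4 in JunDKO. Both Atf3KO libraries were above all others and both JunDKO libraries below them. It rose by 1.10 ± 0.24 in Atf3KO (limma-trend adjusted p = 0.00974) and changed by -1.09 ± 0.24 in JunDKO (adjusted p = 0.0260), and its Atf3KO minus JunDKO difference of 2.19 ± 0.24 passed (adjusted p = 0.000577). With the GC correction its change in Atf3KO was 0.37 ± 0.12 (limma-trend adjusted p = 0.0441). Its Atf3KO call was lost without Scramble replicate 2 and without Atf3KO replicate 2, and its JunDKO call was lost when any library of Scramble or JunDKO was left out. Slc2a3 (GLUT3, a carrier of high affinity) was low in all iBMDM libraries, at 4.07 and 3.40 RPKM in Scramble and 7.34 and 6.72 RPKM in JunDKO. Its change in JunDKO was 0.76 ± 0.32 and did not pass (limma-trend adjusted p = 0.168).

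Of the 3 hexokinases, which trap glucose as glucose 6-phosphate, 2 fell in JunDKO and 2 in Atf3KO. Hk1, the form of most tissues, stood at 36.5 and 34.1 RPKM in Scramble, 32.4 and 31.6 in JunKO, 18.2 and 27.5 in Atf3KO and 18.0 and 17.4 in JunDKO. It fell in JunDKO (-0.96 ± 0.22, limma-trend adjusted p = 0.0258) and in Atf3KO (-0.63 ± 0.22, adjusted p = 0.0455), where the GC correction gave -1.04 ± 0.15 (adjusted p = 0.00151). Hk2, the inducible form, stood at 42.8 and 42.3 RPKM in Scramble, 36.2 and 27.6 in JunKO, 23.0 and 26.0 in Atf3KO and 25.3 and 28.0 in JunDKO. All 4 libraries of Atf3KO and JunDKO lay below Scramble, and Hk2 passed in Atf3KO (-0.78 ± 0.19, limma-trend adjusted p = 0.0143) and not in JunDKO (-0.66 ± 0.19, adjusted p = 0.0650). In JunDKO it did pass in the paired fit (adjusted p = 0.0285), with equal library medians, with the GC correction and with limma-voom, and the direct limma-trend comparison of both knockouts did not pass (-0.12 ± 0.19, adjusted p = 0.640). Hk3, a form of myeloid cells, fell in JunDKO from 73.6 and 56.3 RPKM in Scramble to 34.2 and 26.3 RPKM (-1.07 ± 0.26, limma-trend adjusted p = 0.0323). In Atf3KO, Hk3 stood at 41.9 and 64.0 RPKM and overlapped Scramble.

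Upper glycolysis turns glucose 6-phosphate into triose phosphates, and 5 of its 7 members fell in JunDKO while 0 passed in Atf3KO or JunKO. With the GC correction Pfkl, Aldoa and Gpi1 fell in Atf3KO. Aldoa (aldolase A, which splits fructose 1,6-bisphosphate) was among the most abundant members, at 1572 and 1369 RPKM in Scramble, 1452 and 1174 in JunKO, 1195 and 1752 in Atf3KO and 517 and 449 in JunDKO. Both JunDKO libraries lay far below the other 6, which overlapped one another, and the level was 3.04-fold lower than Scramble (-1.60 ± 0.23, limma-trend adjusted p = 0.00337). Pfkl (the liver form of phosphofructokinase, the committed step) stood at 74.9 and 51.3 RPKM in Scramble and 22.7 and 21.1 RPKM in JunDKO (-1.46 ± 0.26, limma-trend adjusted p = 0.00902). Tpi1 (triose phosphate isomerase) stood at 531 and 389 RPKM in Scramble and 206 and 185 RPKM in JunDKO (-1.21 ± 0.21, adjusted p = 0.00915). Gpi1 (glucose 6-phosphate isomerase) stood at 274 and 211 RPKM in Scramble, 304 and 244 RPKM in JunKO and 147 and 118 RPKM in JunDKO (-0.86 ± 0.21, adjusted p = 0.0340). For each of these genes the JunDKO libraries did not overlap those of any other iBMDM group. Pfkp (the platelet form of phosphofructokinase) fell from 38.0 and 37.2 RPKM in Scramble to 20.9 and 20.9 RPKM in JunDKO (-0.82 ± 0.19, limma-trend adjusted p = 0.0272). The scarce forms did not pass: Pfkm (the muscle form) stood at 3.16 and 5.23 RPKM in Scramble and 5.08 and 4.86 RPKM in JunDKO, and Aldoc (aldolase C) at 21.0 and 15.8 and 12.1 and 9.13 RPKM (-0.74 ± 0.22, limma-trend adjusted p = 0.0649). Aldoc passed in the paired fit (adjusted p = 0.0241), with equal library medians, with the GC correction and with limma-voom.

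Pfkfb3 and Pfkfb4 make and break fructose 2,6-bisphosphate, the activator of phosphofructokinase, and did not follow the enzymes. Pfkfb4 stood at 7.59 and 2.97 RPKM in Scramble, 10.2 and 7.67 in JunKO, 14.8 and 15.5 in Atf3KO and 8.66 and 7.71 in JunDKO. It rose in Atf3KO (1.47 ± 0.34, limma-trend adjusted p = 0.0119), where both libraries exceeded the other 6, and did not pass in JunDKO (0.65 ± 0.34, adjusted p = 0.260) or in JunKO (0.75 ± 0.34, adjusted p = 0.672). Without Scramble replicate 2 or without Atf3KO replicate 2 the Atf3KO call was lost. Pfkfb3 lay between 4.30 and 11.1 RPKM in iBMDMs and passed in none of the 3 comparisons with Scramble.

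Lower glycolysis, from triose phosphates to pyruvate, had the lowest median change in JunDKO of all the roles listed above, at -1.54 over 5 members. Pkm (pyruvate kinase M, which makes pyruvate and ATP) stood at 1575 and 1379.9 RPKM in Scramble, 1451 and 1207 in JunKO, 1061 and 1421 in Atf3KO and 521 and 492 in JunDKO. The JunDKO level was 2.92-fold lower (-1.54 ± 0.20, limma-trend adjusted p = 0.00232). Pgk1 (phosphoglycerate kinase, which makes ATP) stood at 43.2 and 56.4 RPKM in Scramble and 8.17 and 17.3 RPKM in JunDKO (-1.96 ± 0.33, adjusted p = 0.00795). Pgam1 (phosphoglycerate mutase) stood at 22.7 and 22.4 RPKM in Scramble and 5.99 and 7.78 RPKM in JunDKO (-1.59 ± 0.21, adjusted p = 0.00228). Eno1 (enolase) stood at 339 and 250 RPKM in Scramble, 266 and 376 RPKM in Atf3KO and 140.3 and 126 RPKM in JunDKO (-1.12 ± 0.24, limma-trend adjusted p = 0.0206). The JunDKO libraries were the lowest of the 8 for all 4 genes. Gapdh, the dehydrogenase between Tpi1 and Pgk1 and commonly among the most abundant RNAs of a cell, was listed at 4.03 and 1.24 RPKM in Scramble and 2.91 and 1.24 in JunKO. In Atf3KO it was listed at 0 and 26.8 RPKM, and JunDKO gave 0.456 and 0.576 RPKM (-1.15 ± 1.27, limma-trend adjusted p = 0.594). Gapdh therefore gave no usable change, and its fitted value against Scramble in Atf3KO turned from 0.65 to -1.75 without Atf3KO replicate 2.

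Several members share sequence with other places in the mouse genome. Of all 50-base windows of the RefSeq transcript, 91.1% of those of Pgam1, 90.2% of Pgk1, 84.1% of Gapdh, 81.9% of Eno1 and 60.9% of Bnip3 occurred at more than 1 place in GRCm38. The share was 43.1% for Pkm, 32.3% for Ldha, 31.5% for Tpi1, 27.1% for Ldhb, 19.0% for Gpi1 and 12.8% for Aldoa, and it was under 5% for 21 members. Levels of the 5 members above 50% are uncertain where the counting left out or split reads with several places, and the part of the copies in their values was not tested. Members without repeated windows, Slc2a1, Slc2a6, Slc16a3, Hk3, Pfkp and Pgd among them, also fell in JunDKO. Summed over 17 glycolytic enzymes from hexokinase to lactate dehydrogenase, RNA was 5658 and 4635 RPKM in Scramble, 5632 and 4622 in JunKO, 4022 and 5226 in Atf3KO, and 2068 and 1860.5 in JunDKO. Over the 13 of these enzymes with no more than 50% repeated windows the sums were 5248 and 4305 RPKM in Scramble and 1913 and 1709 RPKM in JunDKO.

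Ldha, the subunit of lactate dehydrogenase that favours lactate formation, stood at 1006 and 714 RPKM in Scramble, 1116 and 925 in JunKO, 684 and 679 in Atf3KO and 384 and 337 in JunDKO. It fell in JunDKO, where it was 2.38-fold lower (-1.23 ± 0.21, limma-trend adjusted p = 0.00758), with no overlap with another group. Ldhb, the subunit that favours pyruvate, was listed at 0 in 6 of the 8 iBMDM libraries and at 0.442 and 1.00 RPKM in the others, and was not tested there. Slc16a3 (MCT4, the lactate exporter of glycolytic cells) showed the largest change of any member against Scramble. It stood at 43.3 and 35.1 RPKM in Scramble (199 and 143 reads), 46.8 and 35.1 in JunKO, 30.0 and 44.7 in Atf3KO and 3.52 and 5.08 in JunDKO (13 and 223 reads). The 6 libraries of the other groups overlapped one another and the 2 JunDKO libraries lay far below, 9.12-fold lower than Scramble (-2.93 ± 0.27, limma-trend adjusted p = 0.000481). Slc16a1 (MCT1, a widely expressed monocarboxylate carrier) did not pass, at 12.7 and 18.1 RPKM in Scramble and 17.3 and 20.0 RPKM in JunDKO (0.28 ± 0.22, limma-trend adjusted p = 0.435). Slc16a3 made up 77.4% and 66.0% of the summed RPKM of both carriers in Scramble and 16.9% and 20.2% in JunDKO, and of the 13 libraries Slc16a1 was the more abundant carrier RNA only in those of JunDKO.

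**Figure D2:**
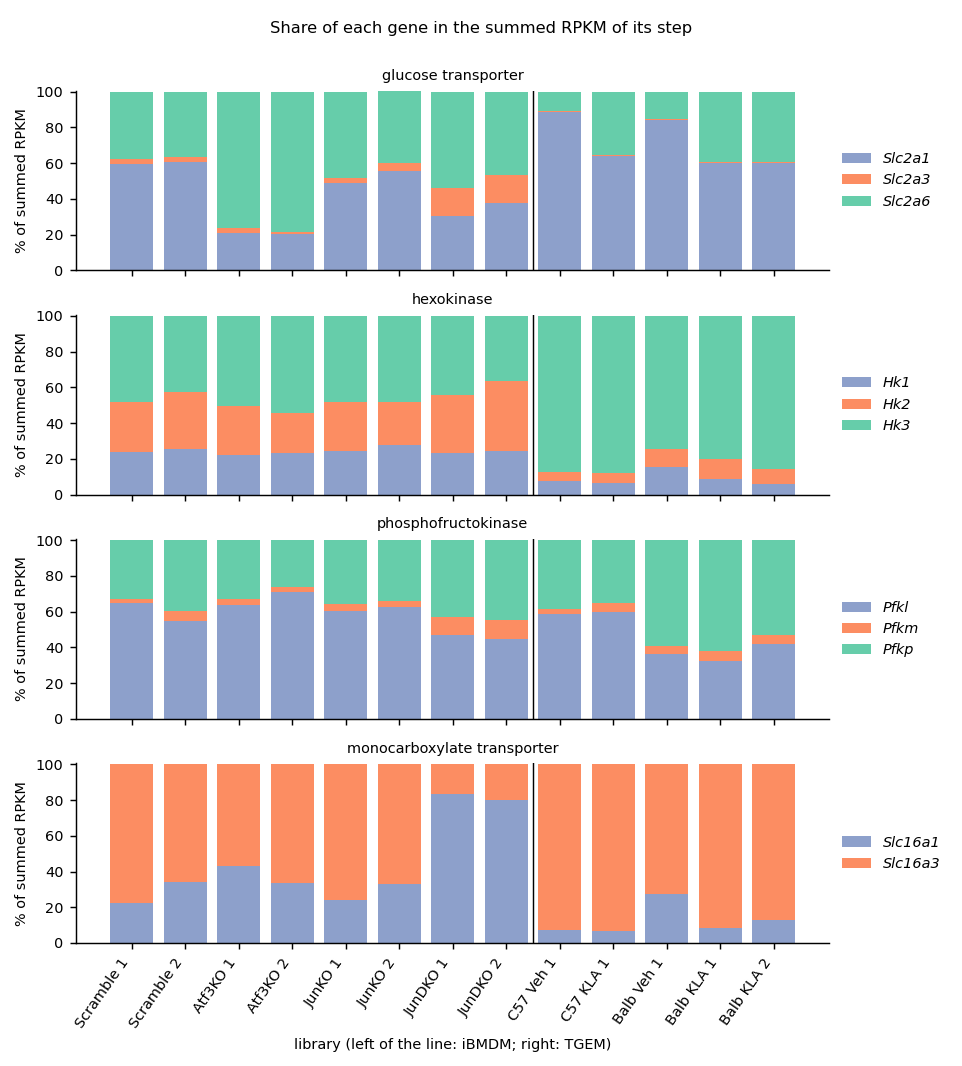
Share of each gene in the summed RPKM of its step, in percent, for glucose transporters, hexokinases, phosphofructokinases and monocarboxylate transporters, with 1 stacked bar per library and the iBMDM libraries left of the vertical line. Slc16a1 takes 83.1% and 79.8% of the carrier bar in the JunDKO libraries and at most 43.1% elsewhere, and Hk3 takes 74.6% to 88.0% of the hexokinase bar in TGEMs.

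Pyruvate dehydrogenase links glycolysis to the mitochondria, and its genes did not pass against Scramble in any knockout, except that Pdk1 rose in Atf3KO with the GC correction (0.59 ± 0.15, limma-trend adjusted p = 0.0140). Pdha1 (its catalytic subunit) lay between 29.7 and 51.2 RPKM, Pdk1 (an inhibitory kinase) between 24.4 and 42.9 RPKM, and Pdk3 (another inhibitory kinase) between 3.84 and 12.0 RPKM in the 8 iBMDM libraries. The change of Pdk3 in JunKO, -0.70 ± 0.30 from 6.52 and 7.65 RPKM in Scramble to 3.84 and 4.11 RPKM, was among the largest there and did not pass (limma-trend adjusted p = 0.631). Hif1a (the oxygen-regulated subunit of HIF-1) stood at 37.9 and 43.8 RPKM in Scramble, 27.2 and 35.6 in JunKO, 20.3 and 11.9 in Atf3KO and 40.9 and 44.1 in JunDKO. It fell in Atf3KO (-1.33 ± 0.26, limma-trend adjusted p = 0.00621), a call lost without Scramble replicate 2 and reduced to -0.41 ± 0.14 (adjusted p = 0.0461) by the GC correction, and in JunDKO it overlapped Scramble (0.06 ± 0.26, adjusted p = 0.906). Bnip3 (a mitophagy receptor induced by hypoxia) stood at 20.7 and 28.7 RPKM in Scramble, 35.2 and 36.7 in JunKO, 17.8 and 8.30 in Atf3KO, and in JunDKO at 7.0 and 8.69. It fell in JunDKO (-1.53 ± 0.33, limma-trend adjusted p = 0.0216) and did not pass in Atf3KO (-0.94 ± 0.33, adjusted p = 0.0501).

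The pentose phosphate pathway was split. Pgd (6-phosphogluconate dehydrogenase, the later NADPH-forming step) stood at 825 and 619 RPKM in Scramble, 516 and 438 in JunKO, 346 and 435 in Atf3KO and 256 and 216 in JunDKO. All 6 knockout libraries lay below Scramble, with a change of -1.60 ± 0.21 in JunDKO (limma-trend adjusted p = 0.00260), -0.88 ± 0.21 in Atf3KO (adjusted p = 0.0134) and -0.59 ± 0.21 in JunKO, which did not pass in this fit (adjusted p = 0.515) but passed in the paired one. Taldo1 (transaldolase, of the non-oxidative branch) also lay below Scramble in all 6 knockout libraries, at 512 and 391 RPKM in Scramble, 303 and 264 in JunKO, 212 and 297 in Atf3KO and 267 and 234 in JunDKO. Its changes were -0.83 ± 0.22 in JunDKO (limma-trend adjusted p = 0.0477), -0.83 ± 0.22 in Atf3KO (adjusted p = 0.0194) and -0.66 ± 0.22 in JunKO (adjusted p = 0.461), which passed in the paired fit. The JunDKO call of Taldo1 was lost in 8 of the 19 fits run beside the reported one. G6pdx (glucose 6-phosphate dehydrogenase, the entry step) lay between 78.7 and 122 RPKM in the 8 libraries and passed in no comparison with Scramble. Tkt (transketolase) did not pass either, at 179 and 123 RPKM in Scramble and 179.9 and 283 RPKM in Atf3KO (0.60 ± 0.31, limma-trend adjusted p = 0.146), although both Atf3KO libraries lay above Scramble. Pgls (6-phosphogluconolactonase, between both dehydrogenases) varied widely between replicates, at 33.7 and 14.7 RPKM in Scramble, 47.5 and 24.0 in JunKO, 71.1 and 199 in Atf3KO and 44.8 and 22.0 in JunDKO. It rose in Atf3KO (2.36 ± 0.60, limma-trend adjusted p = 0.0156), but the call was lost without Scramble replicate 2, without Atf3KO replicate 2 and with a correction for GC content, which gave 0.99 ± 0.42 (adjusted p = 0.0936). Its transcript has the highest GC content of all members, 65.6%, and changes over all genes in Atf3KO rose with GC content (Spearman's rho 0.50 over 10591 genes, against 0.09 for JunDKO). Of the 18 members that passed in Atf3KO with that correction, those that rose were Slc16a1, Pdk1, Slc2a6 and Pfkfb4. The 14 that fell were Slc2a1, Hk1, Hk2, Hk3, Gpi1, Pfkl, Aldoa, Pgam1, Pkm, Ldha, Slc16a3, Hif1a, Pgd and Taldo1, of which Slc2a1, Hk1, Hk2, Hif1a, Pgd and Taldo1 also fell without the correction. The changes of the other 8 ran from -0.91 for Hk3 to -0.45 for Gpi1, and Ldha was the nearest to the threshold (-0.46 ± 0.16, limma-trend adjusted p = 0.0498).

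The differences between knockouts were tested directly, since the comparisons with Scramble share their controls. JunDKO against JunKO gave 0 higher and 15 lower members, with 4.33% of all tested genes higher and 3.81% lower. Against JunKO, Slc16a3 changed by -2.99 ± 0.27 (limma-trend adjusted p = 0.000547), Bnip3 by -2.07 ± 0.33 (adjusted p = 0.00769), Slc2a1 by -1.91 ± 0.20 (adjusted p = 0.00117) and Ldha by -1.49 ± 0.21 (adjusted p = 0.00432). Hk1, Hk3 and Taldo1, which fell in JunDKO against Scramble, did not pass against JunKO (limma-trend adjusted p = 0.0562, 0.0590 and 0.655), and the remaining 15 members that fell against Scramble were the 15 that fell against JunKO. In the paired fit, where 7.1% of genes fell and 13.5% rose, Hk1 (-0.82 ± 0.11, limma-trend adjusted p = 0.00675) and Hk3 (-0.96 ± 0.10, adjusted p = 0.00285) passed too and Taldo1 did not (adjusted p = 0.155), and of 21 members that passed, Pdk3 and Hif1a were higher in JunDKO. Without the block, fewer than the 15 members passed when any JunKO or JunDKO library was left out, and fewer of all genes did too. The median member change was -0.72 without JunKO replicate 1 and -1.01 without JunKO replicate 2. It was -0.84 without JunDKO replicate 1 and -0.80 without JunDKO replicate 2, against 0.20 to 0.23 over all genes in these fits. Atf3KO against JunDKO gave 17 higher and 2 lower members, with 14.9% of tested genes higher and 25.9% lower. Slc16a3 (2.84 ± 0.27, limma-trend adjusted p = 0.000301), Slc2a6, Pgk1 (1.73 ± 0.33, adjusted p = 0.00516), Aldoa (1.59 ± 0.23, adjusted p = 0.00149), Pfkl and Pkm were higher in Atf3KO, and Hif1a (-1.39 ± 0.26, adjusted p = 0.00460) and Slc2a3 (-1.22 ± 0.32, adjusted p = 0.0182) were lower. Fewer than these 19 members passed without either JunDKO library, and fewer of all genes did too. The median member change was 0.84 without JunDKO replicate 1 and 0.60 without JunDKO replicate 2, against -0.12 and -0.14 over all genes.

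Related genes outside the 34 were followed as 3 lists. Of 22 tested genes of a list of other glycolysis and pyruvate genes, 4 rose and 2 fell in JunDKO, with a median of 0.19. Pck2 (mitochondrial phosphoenolpyruvate carboxykinase) rose in JunDKO from 4.59 and 5.35 to 32.9 and 31.3 RPKM (2.47 ± 0.20, limma-trend adjusted p = 0.000281), and Eno3 (the muscle enolase) rose from 3.86 and 4.35 to 20.5 and 16.5 RPKM (1.93 ± 0.33, adjusted p = 0.00807). Slc16a6 and Pdp2 also rose, and the phosphoglucomutase gene Pgm2 (-1.95 ± 0.18, limma-trend adjusted p = 0.000509) and Eno1b, a gene near-identical to Eno1, fell. Levels of Eno1b lay close to those of Eno1 in every iBMDM library, so its fall is not independent of that of Eno1. The shares of this list in JunDKO compare with 6.93% of all genes higher and 4.82% lower. In Atf3KO 5 of the 22 rose and 4 fell, with 20.7% of all genes higher and 20.6% lower, and with Slc2a8 (2.38 ± 0.31, limma-trend adjusted p = 0.00132) and Pdp1 (-2.38 ± 0.24, adjusted p = 0.000536) the farthest on either side, and with the GC correction they changed by 1.42 ± 0.19 and -1.46 ± 0.32 (adjusted p = 0.00124 and 0.00907). With any library of Scramble or JunDKO left out, fewer of this list rose in JunDKO and fewer of all genes passed, while Pck2 and Pgm2 still passed and Eno3 did not. Of 8 tested genes of other pentose phosphate genes, 0 rose and 1 (Pgm2, which is on both lists) fell in JunDKO, and 2 (Prps1 and H6pd) rose and 0 fell in Atf3KO. With the GC correction 2 rose and 1 fell in JunDKO, where 2370 of 10591 genes passed in either direction. In Atf3KO 4 rose and 0 fell with it, where 21.8% of genes rose and 19.2% fell. In JunKO 0 genes of either list passed limma-trend, with or without the block.

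Hypoxia genes that encode no glycolytic enzyme were the third list. Of its 22 tested genes, 0 rose and 11 fell in JunDKO, with a median of -1.08, where 4.82% of all genes fell. Egln3 (an oxygen-sensing prolyl hydroxylase) went from 21.5 and 24.3 RPKM in Scramble to 0.724 and 0.914 RPKM in JunDKO (-3.72 ± 0.31, limma-trend adjusted p = 0.000296). P4ha2 (a collagen prolyl hydroxylase) went from 13.8 and 12.7 to 1.42 and 0.360 RPKM (-2.97 ± 0.28, adjusted p = 0.000553), and Ankrd37 from 30.0 and 31.9 to 3.59 and 3.02 RPKM (-2.90 ± 0.19, adjusted p = 0.000105). The JunDKO libraries lay below Scramble for all 3, which passed under each of the 19 alternatives. The count of 11 was 11 in the paired fit, where 8.07% of genes fell. It was also 11 with the GC correction, where 2370 of 10591 genes passed in either direction. Fewer of the list passed when any library of Scramble or JunDKO was left out, and fewer of all genes did too. Adm, Ddit4 and Ero1l were the next in size, and the HIF genes Arnt and Epas1, like Hif1a, did not pass. In Atf3KO 1 of the 22 rose and 8 fell, where 20.7% of all genes rose and 20.6% fell, and with the GC correction 1 rose and 13 fell, where 21.8% of genes rose and 19.2% fell. Adm (adrenomedullin) fell there (-2.93 ± 0.29, limma-trend adjusted p = 0.000506), and Ddit4 (an inhibitor of mTORC1 signalling) rose in Atf3KO (2.40 ± 0.34, limma-trend adjusted p = 0.00181) while it fell in JunDKO (-1.55 ± 0.34, adjusted p = 0.0225). The JunDKO call of Ddit4 was lost in 6 of 19 alternatives, among them a pseudocount of 5 (-0.51) and each library left out. Bnip3l (-2.06 ± 0.28, limma-trend adjusted p = 0.00150) and Kdm3a (-1.39 ± 0.17, adjusted p = 0.00120) fell in Atf3KO and not in JunDKO, and both were lower in Atf3KO than in JunDKO when tested directly (-1.95 ± 0.28 and -1.46 ± 0.17, adjusted p = 0.00140 and 0.000693). With the GC correction the changes in Atf3KO were -1.44 ± 0.17 for Bnip3l, -1.02 ± 0.17 for Kdm3a, -2.97 ± 0.28 for Adm and 1.77 ± 0.31 for Ddit4 (limma-trend adjusted p = 0.000753, 0.00303, 0.000367 and 0.00351), and these 4 passed there in all 15 alternatives. In JunKO 0 of the 22 passed, with or without the block.

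**Figure D3:**
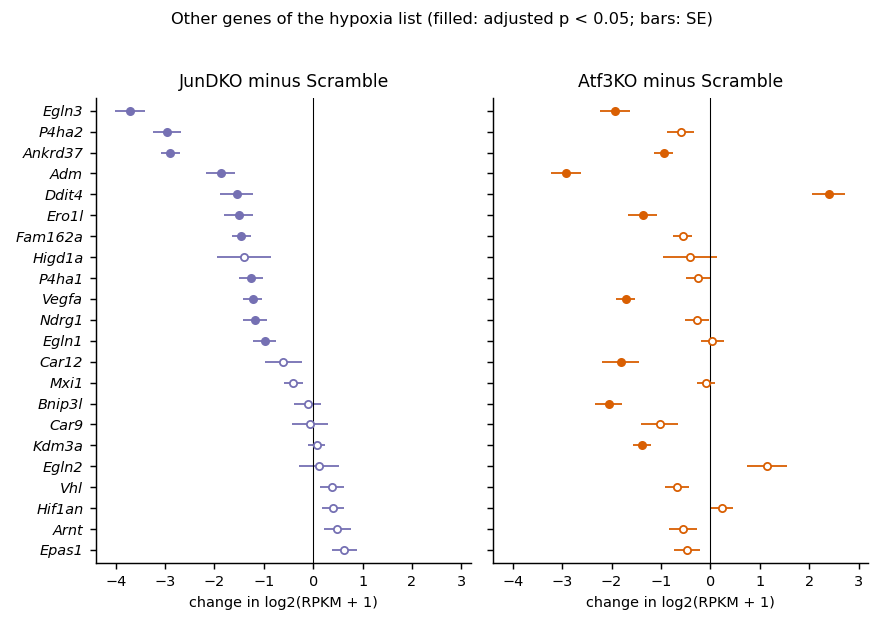
Change in log2(RPKM + 1) against Scramble of the 22 tested genes of the hypoxia list outside the 34, in JunDKO and in Atf3KO, ordered by the JunDKO change, with bars for the standard error and filled points for an adjusted p under 0.05. The 11 filled JunDKO points run from -3.72 for Egln3 to -0.98 for Egln1, and the filled Atf3KO points are other genes in part, with Ddit4 at 2.40 on the opposite side.

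In primary TGEMs most members were lower than in Scramble iBMDMs. For 24 of 34 members all 5 TGEM libraries lay below both Scramble libraries, for 3 they lay above and for 7 they overlapped. In the 2 C57Bl/6EiJ TGEM libraries alone, which carry the strain label of the iBMDMs, 25 members lay below both Scramble libraries, 6 lay above and 3 overlapped. Pkm, for example, stood at 361 and 279 RPKM in these TGEM libraries against 1575 and 1379.9 RPKM in Scramble. Cell kind, culture and date cannot be told apart here, and no test was made. The same orders were not counted over all genes, so these counts do not set the members apart from genes in general. The 17 glycolytic enzymes summed to 2572 and 2054 RPKM in the C57Bl/6EiJ vehicle and KLA libraries, to 1185 RPKM in the Balb/cJ vehicle library and to 1258 and 1169 RPKM in the Balb/cJ KLA libraries. Hk3 was higher in TGEMs (115 to 313 RPKM against 56.3 and 73.6 RPKM in Scramble) and made up 74.6% to 88.0% of hexokinase RNA there against 48.1% and 42.4% in Scramble. The other members that lay above Scramble in all 5 were Pfkfb3 (12.4 to 17.2 RPKM) and Ldhb (3.74 to 8.75 RPKM). Pgk1 (1.65 to 5.60 RPKM), Eno1 (6.54 to 64.8 RPKM) and Pdk1 (1.57 to 10.3 RPKM) were among those farthest below. The sum of the 8 proliferation genes was also lower in TGEMs, at 46.7 to 82.9 RPKM against 296.1 and 288.3 RPKM in Scramble. Its part in the lower member RNA was not tested.

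**Figure D4:**
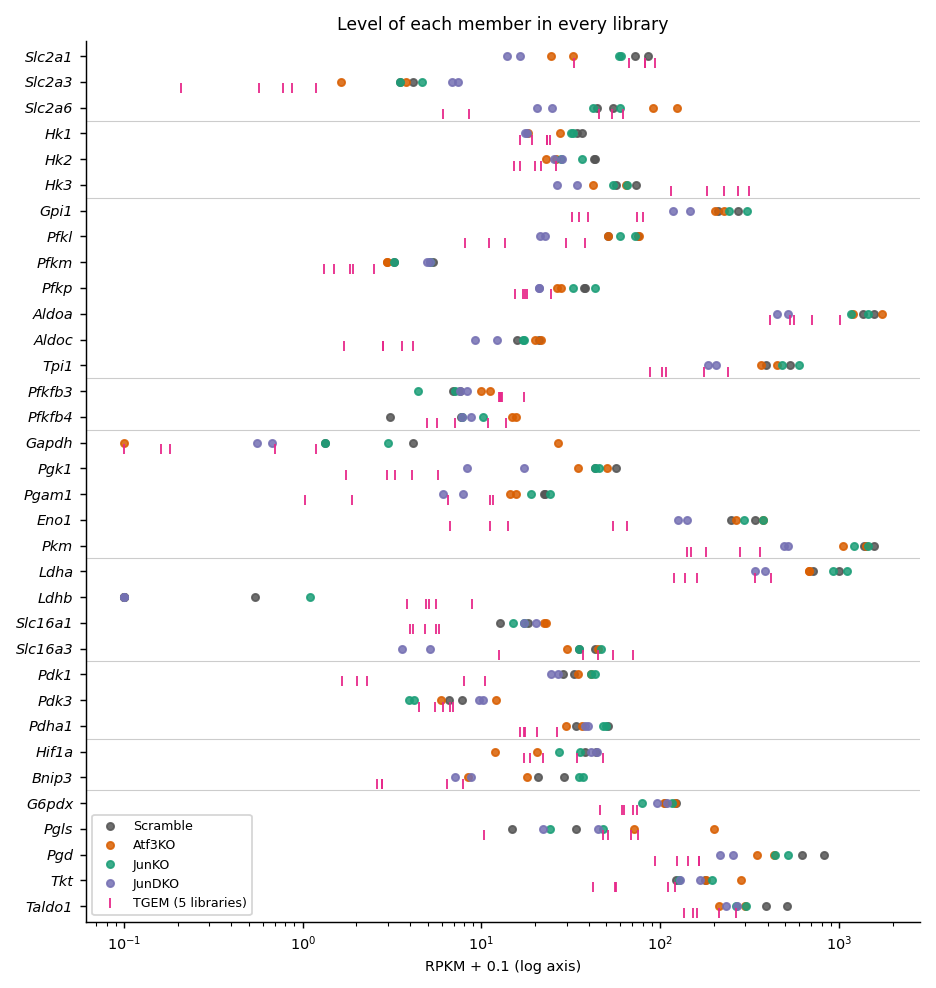
Level of each member in every library as RPKM + 0.1 on a log axis, with 1 row per gene, circles for the 8 iBMDM libraries coloured by group and pink ticks for the 5 TGEM libraries. The JunDKO circles sit left of the others for most glycolytic enzymes, and Slc16a3 is the clearest case with 3.52 and 5.08 RPKM against 30.0 to 46.8 RPKM.

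KLA for 1 h changed 1 of the 32 tested members in TGEMs. Slc2a6 rose from 8.38 to 45.6 RPKM in C57Bl/6EiJ and from 6.03 to 61.6 and 53.6 RPKM in Balb/cJ. Every KLA library exceeded both vehicle libraries, by 2.74 ± 0.28 in the fit with strain as a covariate (limma-trend adjusted p = 0.00379). Over all 10357 tested genes 1.29% rose and 0.232% fell, and limma-voom on reads also passed 1 member. By the dates in the labels, the C57Bl/6EiJ vehicle and KLA libraries share a day, as do the Balb/cJ vehicle library and Balb/cJ KLA replicate 1, whereas Balb/cJ KLA replicate 2 has a day of its own. With date in place of strain, a fit with 1 residual degree of freedom that compares libraries within a day, Slc2a6 was again the 1 member that passed (2.73 ± 0.31, limma-trend adjusted p = 0.0367), where 0.647% of genes rose and 0.0386% fell. The call was lost without the Balb/cJ vehicle library (limma-trend adjusted p = 0.198), where the change was 2.31. The median member change was -0.07 against -0.15 over all genes. The 3 next largest changes did not pass: Pgls stood at 75.4 and 68.8 RPKM in the C57Bl/6EiJ vehicle and KLA libraries and at 10.2, 51.2 and 47.5 RPKM in the Balb/cJ vehicle and KLA libraries (1.18 ± 0.49, limma-trend adjusted p = 0.324). Slc2a1 stood at 67.0 and 81.8 RPKM in C57Bl/6EiJ and at 33.0, 93.7 and 82.0 RPKM in Balb/cJ in the same order (0.91 ± 0.32, adjusted p = 0.266), and Slc16a3 at 70.8 and 54.1 and at 12.4, 44.9 and 36.9 RPKM (0.77 ± 0.45, adjusted p = 0.449). For all 3 the Balb/cJ vehicle library was the lowest of the 5, and without it the changes of Pgls, Slc2a1 and Slc16a3 were -0.13, 0.28 and -0.38. That library also had the highest neutrophil marker sum of the 5 (20.3 RPKM), of which 20.1 RPKM was Mmp8 alone. No other neutrophil marker exceeded 0.169 RPKM there. Balb/cJ KLA replicate 2 held the most marker RNA of mast cells (18.7 RPKM) and B cells (23.9 RPKM). The part of these in the KLA and strain differences was not tested. Hif1a, Hk2 and Pfkfb3, which have known roles in activated macrophages, changed by -0.40 ± 0.33, 0.46 ± 0.25 and -0.15 ± 0.25 and did not pass. The test of an interaction of KLA with strain passed for 0 members (0% of 10357 tested genes) in a limma-trend fit with 1 residual degree of freedom, with 2 members at an unadjusted p under 0.05 and a smallest adjusted p of 0.492. Outside the 34, Adm was the only gene of the 3 lists that passed, and it rose with KLA (2.84 ± 0.44, limma-trend adjusted p = 0.0251), a call lost in 6 of 15 alternatives, among them date in place of strain (2.60, adjusted p = 0.146), limma-voom (adjusted p = 0.159), and the fits without the Balb/cJ vehicle library (1.71, adjusted p = 0.344) or Balb/cJ KLA replicate 1 (adjusted p = 0.193).

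**Figure D5:**
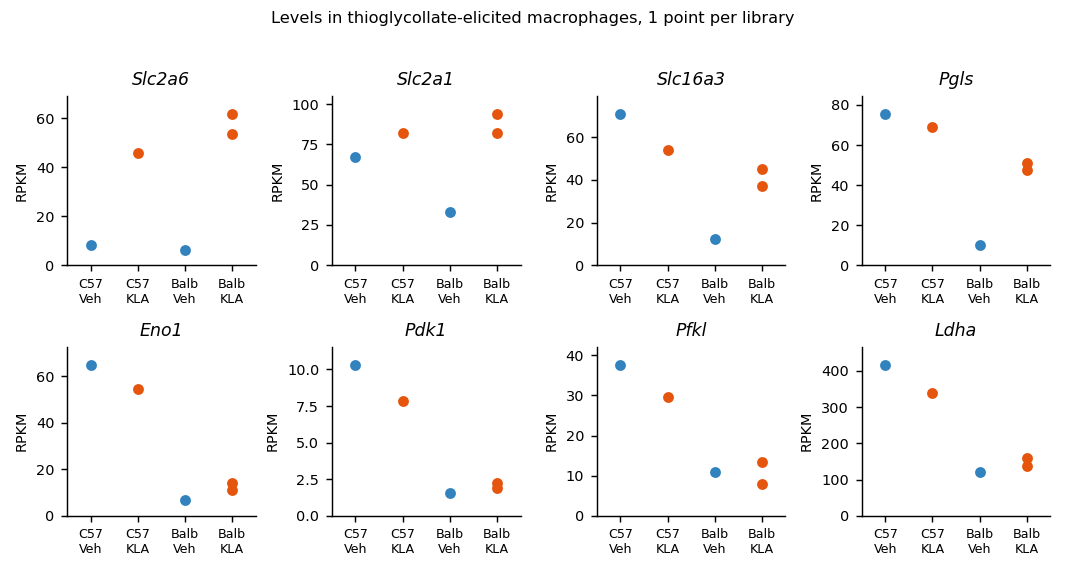
RPKM of 8 members in the 5 TGEM libraries, with 1 point per library, vehicle in blue and KLA in orange, for C57Bl/6EiJ (C57) and Balb/cJ (Balb). Slc2a6 is at most 8.38 RPKM with vehicle and at least 45.6 RPKM with KLA, whereas Eno1, Pdk1, Pfkl and Ldha are lower in every Balb/cJ than in every C57Bl/6EiJ library.

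Between strains, 4 members were lower in Balb/cJ TGEMs and 0 were higher, with 1.45% of all tested genes lower and 0.859% higher. Eno1 stood at 64.8 and 54.6 RPKM in the C57Bl/6EiJ vehicle and KLA libraries and at 6.54, 11.1 and 14.1 RPKM in the Balb/cJ vehicle and KLA libraries (-2.51 ± 0.32, limma-trend adjusted p = 0.0115). Pdk1 stood at 10.3 and 7.84 against 1.57, 1.92 and 2.20 RPKM (-1.79 ± 0.27, adjusted p = 0.0215), Pfkl at 37.7 and 29.7 against 11.0, 8.02 and 13.4 RPKM (-1.54 ± 0.29, adjusted p = 0.0477) and Ldha at 417 and 339 against 119, 138 and 160.2 RPKM (-1.45 ± 0.28, adjusted p = 0.0489). The strains did not overlap for any of these, and 27 of 32 member changes were below zero, with a median of -0.68 against -0.08 over all genes. The largest that did not pass were Pgls (-1.45 ± 0.49, limma-trend adjusted p = 0.156), Pgam1 (-1.32 ± 0.71, adjusted p = 0.328) and Slc16a3 (-1.27 ± 0.45, adjusted p = 0.171). Changes between the strains fell with GC content over all genes (Spearman's rho -0.45 over 10264 genes), the Balb/cJ reads were aligned to another genome, and the libraries of the strains carry different dates, so strain, date and alignment cannot be told apart. The macrophage markers Csf1r, Adgre1, Fcgr1, Itgam and Mertk were also lower in every Balb/cJ than in every C57Bl/6EiJ library. Lyz2, Cd14 and Cd68 overlapped, and the part of the cell mix in the member differences was not tested. Fewer members passed without either C57Bl/6EiJ library, without the Balb/cJ vehicle library or without Balb/cJ KLA replicate 1, and fewer of all genes did too. The median member change was -0.46 without the C57Bl/6EiJ vehicle library and -0.94 without the C57Bl/6EiJ KLA library. It was -0.46 without the Balb/cJ vehicle library and -0.73 without Balb/cJ KLA replicate 1. Over all genes the medians of these fits ran from -0.14 to -0.05. In the windows above, 81.9% of the Eno1 transcript occurs at several places in the reference genome, and the near-identical gene Eno1b gave a like difference, lost in 4 of its 13 alternatives (-2.47 ± 0.32, limma-trend adjusted p = 0.0119). Eno1b stood at 66.6 and 56.2 RPKM in C57Bl/6EiJ and at 6.79, 12.4 and 14.5 RPKM in Balb/cJ, close to Eno1 in each library. It is therefore no independent second gene, and whether the same reads were counted for both was not tested. The phosphofructokinase mix differed between the strains as well: Pfkl made up 58.8% and 60.0% of the summed RPKM of the 3 forms in C57Bl/6EiJ and 32.5% to 41.7% in Balb/cJ, where Pfkp was the most abundant form in all 3 libraries.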

How the data were processed

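Polyadenylated RNA from 13 libraries was analysed, and the 4 GRO-seq samples of the series are not analysed here. The values are RPKM as deposited by the authors, who aligned reads with STAR to mm10, or to a Balb/cJ genome for that strain, and counted exonic reads per gene model with HOMER in its RPKM mode. The gene models were condensed to 1 per gene by the authors. Tool versions and the handling of reads with several places are not given in the sources used here. Because each value is a whole multiple of what 1 read is worth, reads could be recovered (100% of values up to 50 reads lay within 0.05 of a whole read), and they gave 1272105 to 14952442 exonic reads per library, out of 1553296 to 18444405 reads that the authors' scaling used. No pair of libraries held identical values.

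Genes averaging 1 RPKM or more across a fit's libraries were tested two-sided on log2(RPKM + 1) with limma 3.58.1 (trended variance, R 4.3.3) and Benjamini-Hochberg adjustment over all tested genes. The iBMDM fit held 8 libraries (4 residual degrees of freedom) and the TGEM fit 5, with strain and treatment as terms (2 residual degrees of freedom). A gene passed at an adjusted p under 0.05. By rule, values in every library are given per comparison for up to 14 members with the largest changes that passed and 3 with the largest that did not. The other members that passed are also named, so that each role is complete. Same-numbered libraries of Scramble, JunKO and JunDKO deviated together (r = 0.22, 0.18 and 0.19 for the 3 pairs of groups, across genes), so their numbers were taken to pair them, and a fit of these 6 libraries with the number as a block was added after the data were seen. The code was tested on simulated data. Tables and figures were made with Python 3.11.15, pandas 2.3.3 and matplotlib 3.10.9. Gene models were matched to RefSeq on GRCm38 for GC content, repeated 50-base windows and promoters. Alternatives were other pseudocounts, filters and scalings, limma-voom on reads, a GC correction, a replicate block, other sets of libraries, and each library left out in turn. The members and lists were chosen with earlier results of these data known.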

Additional observations from a re-analysis of the deposited data

How the results depend on the processing

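Directions of the members that passed were stable: of 342 values for JunDKO against Scramble under alternatives, 0 reversed and 51 no longer passed, and of 135 for Atf3KO, 0 reversed and 20 no longer passed. Counts moved more. With a library left out, the members that passed numbered 6 to 9 (JunDKO against Scramble), 3 to 10 (Atf3KO against Scramble), 2 to 7 (JunDKO against JunKO), 9 to 20 (Atf3KO against JunDKO), 0 to 1 (KLA) and 0 to 5 (strain). A lone library was then assumed to vary like the other groups. For Atf3KO against Scramble a GC correction gave 18 and a replicate block with that correction 19, against 9, while 4336 and 4484 of all genes passed, against 4409. The strain count of 4 became 2 with a pseudocount of 5, 0 with no filter, 2 with equal library medians, 2 with quantile normalization, 8 with limma-voom and 9 with all 13 libraries in 1 fit. Over all genes the count of 239 became 167, 44, 224, 186, 458 and 793 in the same order. Gapdh, Pgls and Slc16a3 had values of changing sign without passing, and the cause was not tested. Gapdh in Atf3KO against Scramble was -0.52 with a pseudocount of 0.1, -0.24 with limma-voom, and -1.75 to 3.05 with a library left out, and against JunDKO -0.60 to 4.20. With a library left out the KLA changes of Pgls and Slc16a3 ran from -0.13 to 2.16 and from -0.38 to 1.64.

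Same-numbered libraries deviated together in Scramble, JunKO and JunDKO (r = 0.18 to 0.22). For Atf3KO with Scramble, JunKO and JunDKO, r was -0.21, -0.21 and -0.12. The numbers were therefore taken to pair the former 3 groups and not Atf3KO. The labels state no pairing, and correlations this weak do not establish it. A replicate block in the 6 libraries of Scramble, JunKO and JunDKO, chosen after the data were seen, passed 21 members for JunDKO and 2 for JunKO against Scramble and 21 for JunDKO against JunKO, and the same counts with a GC correction. In the same order 2654, 141 and 2204 of all genes passed, and 2788, 187 and 2342 with the GC correction. With the replicate block over all 8 libraries, limma-trend passed 16 members for JunDKO, 8 for Atf3KO and 0 for JunKO against Scramble, 14 for JunDKO against JunKO and 18 for Atf3KO against JunDKO. TGEM libraries share days rather than replicate numbers, and the KLA fit with date in place of strain passed 1 member. The shallowest libraries, of Scramble, JunKO and JunDKO replicate 1, limit what can be seen of scarce members such as Ldhb, Slc2a3 and Pfkm.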
